A study of Mus musculus with 366 samples.

Results

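The neutrophil granule genes examined here are 9 genes, S100a8, S100a9, Ngp, Camp, Ltf, Lcn2, Mpo, Elane and Retnlg, followed through the aortas of the Ath-HMDP. They were taken by gene symbol, using the brightest probe set of a gene on average, and 8 of the 9 could be read out of 17097 genes with a single symbol. Retnlg, a resistin-like secreted protein, was not analysed here because no probe set carried its symbol in the annotation used. Each measured member had 1 probe set.

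The data were 366 Affymetrix arrays, 1 per female mouse, from 101 F1 strains. Each F1 came from a different inbred or recombinant inbred strain crossed to C57BL/6J, so that every animal had 1 set of chromosomes from C57BL/6J, and the C57BL/6J group had both. All groups, the C57BL/6J group included, carried the human APOE-Leiden and CETP transgenes, which raise plasma lipids, and no group lacked them. Mice were killed at 24 weeks of age, after 8 weeks on chow and 16 weeks on a Western diet, and the aorta was taken from the arch to the middle of the abdomen after the surrounding fat had been cleaned off. The strains comprised 36 BXD, 21 AXB/BXA, 9 CXB, 4 BXH and 31 classical inbred strains. Of these, 95 had at least 2 arrays (360 arrays in all). Values are RMA levels on the log2 scale, so that a difference of 1 is a doubling of signal. The labels give no batch, and they do not say whether mice of a strain shared a litter or cage, so p-values measure the spread between these mice.

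Neutrophils are short-lived white blood cells that carry ready-made antimicrobial proteins in granules. Elane (neutrophil elastase, a serine protease) and Mpo (myeloperoxidase, which makes hypochlorous acid) are packed into the primary granules early in the marrow. Ltf (lactoferrin, an iron-binding protein), Camp (the cathelicidin precursor), Ngp (neutrophilic granule protein) and Lcn2 (lipocalin 2, which binds bacterial siderophores) belong to the later, specific granules. S100a8 and S100a9 form calprotectin, a calcium- and zinc-binding pair that fills the cytosol of neutrophils. Several members are also made outside neutrophils: Ltf by glandular and airway epithelium, S100a8 and S100a9 by stratified epithelium, and Lcn2 by many cell types in inflammation. In bulk tissue such as this, fewer cells of a type and less RNA per cell cannot be told apart.

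Facts of the whole set were as follows. Array medians lay between 3.17 and 3.40, and no 2 arrays were identical. Smooth muscle and endothelium were present throughout: Acta2 (smooth muscle actin) had a lowest value of 8.37 and a median of 12.05, and Pecam1 ranged from 5.81 to 8.49. Some arrays stood apart for markers of other tissues. An array was called high in a marker list where the list mean exceeded the median of all arrays plus 3 scaled median absolute deviations. By that measure 44 arrays were high in airway epithelium markers, 29 in squamous epithelium markers, 19 in hepatocyte markers and 6 in erythroid markers. The rule compares arrays with each other, so signal shared by all of them is not flagged. Brown adipocyte list means ran from 9.99 to 11.66 (median 11.11), so this signal was strong on every array. Smooth muscle list means ran from 5.54 to 10.01 and skeletal muscle list means from 3.39 to 12.44. The rule called 0 arrays high in the brown adipocyte or skeletal muscle list. The defining surface receptors of neutrophils were low, with Csf3r (the G-CSF receptor) between 2.71 and 3.93 and Cxcr2 (the receptor of Cxcl1) between 2.95 and 4.21. The table gives no detection calls, so low values could not be separated from background.

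S100a8 ranged from 2.32 through a median of 3.42 to 5.88 over the 366 arrays, and S100a9 from 3.20 through 4.58 to 8.32. Lcn2 ranged from 2.87 through 3.70 to 8.37, and Ltf from 2.38 through 2.81 to 9.46. These 4 genes were among the more variable on the array, since their SD over arrays exceeded that of 95.5% to 98.7% of all probe sets. Ngp (2.22, median 2.78, highest 4.17) and Camp (2.13, median 2.60, highest 3.82) moved far less. Mpo stayed between 2.35 and 3.27 and Elane between 2.25 and 3.24. Neither Mpo nor Elane exceeded the median of its own array on any of the 366 arrays, and Mpo varied less than all but 6.82% of probe sets. The primary granule genes thus varied little, while S100a8, S100a9, Lcn2 and Ltf varied widely between mice.

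**Figure D1:**
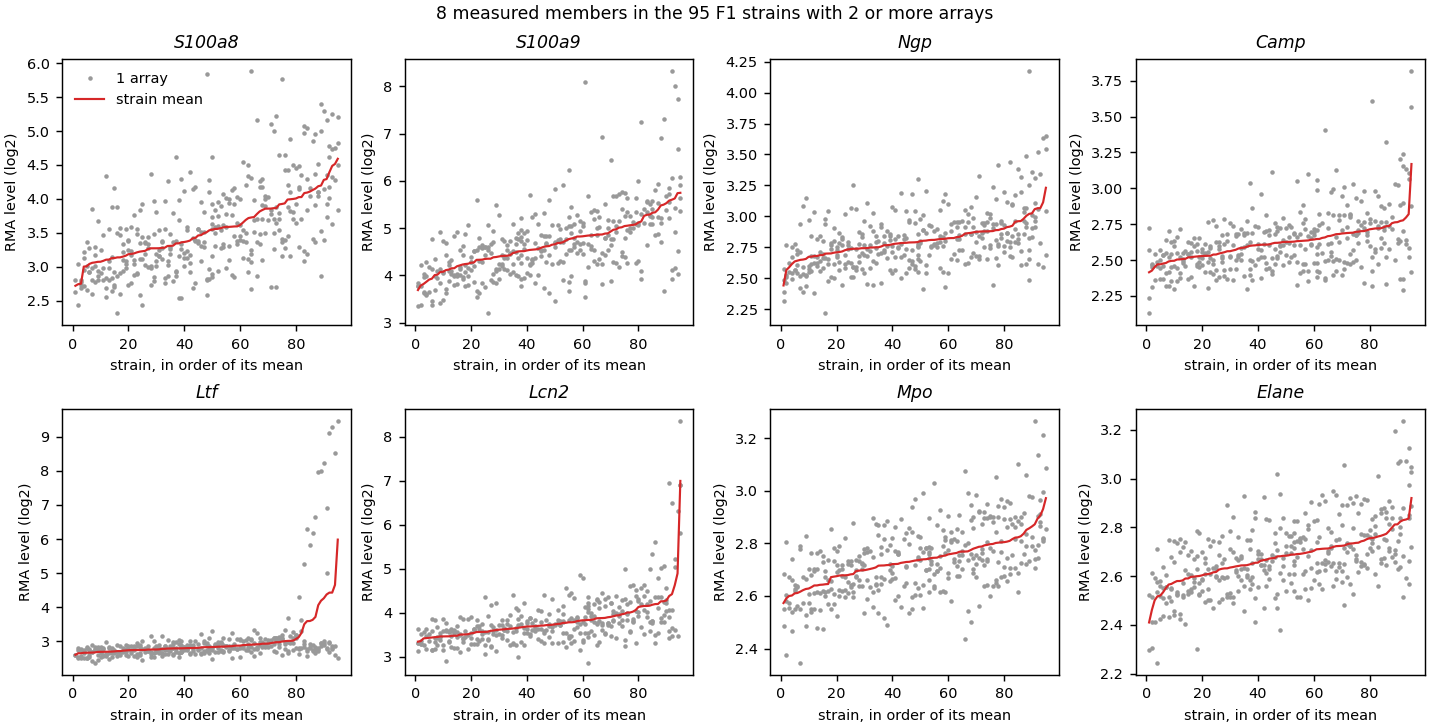
RMA level (log2, vertical axis, its own scale in each panel) of the 8 measured members in every array of the 95 strains with 2 or more arrays, with strains ordered from left to right by their mean. Grey points are single arrays and the red line is the strain mean. S100a8 and S100a9 climb gradually, Lcn2 is level up to LG/J at the far right (mean 7.0), and Ltf is level except for single arrays that reach 9.46.

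The first comparison asked whether the members differed among strains more than mice of a strain differed from each other. By limma's moderated F test with Benjamini-Hochberg adjustment over all 45141 probe sets, 5 of the 8 members did so. That share has to be read against a background in which 77% of all probe sets were called, and it is not a result about the members. The median share of variance that lay among strains was 9.24% for the members and 17.9% for all probe sets.

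Lcn2 had the largest share among strains of the 8 members, 35.9% (limma adjusted p = 8.7e-13), higher than 83.1% of probe sets. All 4 LG/J arrays were high in Lcn2, at 5.82, 6.90, 6.91 and 8.37, and their mean was 7.0 ± 1.04 (SD, n = 4). The median of the other strain means was 3.72, and the next strain was BXD18/TyJ at 4.89 ± 2.00 (SD, n = 2), where 1 array read 6.31 and the other 3.48. Only 3 arrays of other strains exceeded the lowest LG/J array: BXA7/PgnJ replicate 3 (6.94), AXB15/PgnJ replicate 3 (6.51) and that BXD18/TyJ array. Each of these 3 readings was thus from a single mouse of its strain, while LG/J was high in every mouse. At a lower level, BXD24/TyJ-Cep290<rd16>/J read 5.04, 5.23 and 3.62. By the rule of 3 scaled median absolute deviations, 18 arrays of 14 strains were high in Lcn2, LG/J included. Without the LG/J arrays the share among strains of Lcn2 dropped to 7.94%, with an adjusted p of 0.048. LG/J was singled out after its values were seen, so no test was made of it alone.

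A few other genes that went with Lcn2 are given for LG/J as a description. They were picked by their Pearson correlation with Lcn2, to which LG/J itself contributes, and form no fixed list. Serpina3n, an acute-phase serine protease inhibitor, averaged 6.55 ± 0.77 in LG/J (SD, n = 4) against a median of 4.54 over the other strains, and was the gene most like Lcn2 within strains (biweight midcorrelation 0.39, 360 arrays). Timp1, an inhibitor of matrix metalloproteinases, averaged 6.42 ± 0.49 in LG/J against 4.12. Ptx3, a pentraxin, averaged 5.4 ± 1.66 in LG/J against 2.73. Cxcl1, which attracts neutrophils through Cxcr2, averaged 5.14 ± 1.10 in LG/J against 3.13, and Ccl19, a chemokine of lymphocytes and dendritic cells, 7.75 ± 0.57 against 4.99. LG/J had the highest mean of the 95 strains for each of these 5 genes. Single LG/J mice were not all apart: the lowest LG/J array had 3.25 for Ptx3, with 8 arrays of other strains above it, and 3.82 for Cxcl1, with 23 above it. For Serpina3n the lowest LG/J array had 5.67, with 19 above it, and the FVB/NJ mean was 6.11. Timp1 and Ccl19 had 2 and 1 arrays of other strains above the lowest LG/J array. The r of Ptx3 with Lcn2 across strain means was 0.68, and 0.07 without the 2 strains farthest from the median of Lcn2. By the biweight midcorrelation, which weights distant strains down, the genes nearest to Lcn2 across strain means were Rab4b, Sirt7 and Stard8, at 0.50 to 0.54.

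S100a8 and S100a9 differed among strains with shares of 15.5% (adjusted p = 8e-04, limma) and 14.4% (adjusted p = 0.0016, limma). Both calls were lost without replicate 2 of every strain (S100a8 6.2%, adjusted p = 0.17; S100a9 8.67%, adjusted p = 0.096, limma), in classical inbred strains alone (5.94%, adjusted p = 0.22; 4.43%, adjusted p = 0.28) and in AXB/BXA strains alone (adjusted p = 0.16 for both). Among the 95 strains with 2 or more arrays, CXB7/ByJ had the highest S100a8, at 3.84, 4.82, 5.21 and 4.50, followed by AXB10/PgnJ with a mean of 4.52 and LG/J with 4.49. The lowest strains were 129X1/SvJ, at 2.81 and 2.63, and NOD/ShiLtJ, at 2.44 and 3.04. Neighbours in this order did not separate: 19 strain means lay within 1 pooled within-strain SD (0.61) of the highest. For S100a9, LG/J was highest of the same 95 strains at 5.37, 5.63, 6.09 and 5.91, with BXD87/RwwJ lowest at 3.78, 3.77, 3.36 and 3.85, and 21 strains lay within 1 such SD (0.71) of the highest. The single CXB11/HiAJ array was higher than these strain means, at 5.06 for S100a8 and 5.95 for S100a9.

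Mpo (8.93%, adjusted p = 0.042) and Elane (9.54%, adjusted p = 0.03) passed the same limma test narrowly, on strain means that spanned 0.40 and 0.51. FVB/NJ had the highest Elane, at 3.03, 2.89, 3.05 and 2.72, and CE/J the lowest, at 2.30 and 2.52. Ngp (1.83%, adjusted p = 0.34), Ltf (2.15%, adjusted p = 0.31) and Camp did not pass in limma. For Camp the estimated share was below 0, at -2.75%, with an adjusted p of 0.73, which means that strain means spread no more than mice of a strain would give. Among strains with 2 or more arrays BUB/BnJ was highest for Ngp (3.54, 2.69, 3.04 and 3.65) and for Camp (3.57, 2.88, 2.42 and 3.82), and in both genes replicates 1 and 4 were the high ones. Those 2 mice were also high in S100a9, at 6.06 and 8.32, against 3.92 and 4.11 in the other 2.

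Genes of the neutrophil beyond the members were examined as lists that had been fixed with earlier results of these data known. Of 23 measured surface receptors 19 were called by the F test, of 23 maturation and granule genes 17, of 13 growth factors and attractants 6, and of 12 receptors and partners of the secreted proteins 9, beside the background of 77%. The median shares among strains were 16.1%, 14.9%, 5.88% and 29.7% in that order, and 17.9% over all probe sets. The smallest p-values among the receptors belonged to Ptafr (the receptor of platelet-activating factor, 37.8%), Fcgr4 (an IgG Fc receptor, 35.1%) and Tlr4 (the endotoxin receptor, which also binds S100a8 and S100a9, 32.7%). Among the attractants, Cxcl12 reached 41.7%, Cxcl1 39.4% and Il6 34.0%. Hp (haptoglobin, 48.5%), Anxa1 (annexin A1, 47.3%) and Mmp9 (a gelatinase of granules, 23.9%) led the granule list. Hp and Anxa1 averaged 11.23 and 9.49, where Csf3r did not exceed 3.93, and the cells behind such values were not tested. By the within-strain midcorrelation with S100a9, Hp was lowest of the granule list (-0.1) and Tlr4 lowest of the receptors (-0.13). Anxa1 was the highest of the granule list with Lcn2 (0.18). The partners were led by Serpina1b (an inhibitor of elastase, 79.8%), Serpina3n (48.6%) and Bsg (basigin, 45.6%). Slc22a17, a receptor of Lcn2, had a share of 37%.

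The second comparison set 4 other progenitors of the recombinant inbred sets, DBA/2J, C3H/HeJ, BALB/cJ and A/J, against C57BL/6J. All 4 comparisons share the same 6 C57BL/6J arrays. No member was called in any of them by limma, where the adjusted p-values of the 8 members ranged from 0.15 to 0.97 for A/J, from 0.2 to 0.97 for BALB/cJ, from 0.25 to 1 for C3H/HeJ and from 0.6 to 0.98 for DBA/2J. The shares of all probe sets called were 1.33% higher and 3.61% lower in A/J, 1.63% and 4.67% in BALB/cJ, 3.91% and 5% in C3H/HeJ, and 1.4% and 2.29% in DBA/2J. At an unadjusted limma p under 0.05 there were 2 members in A/J, 1 in BALB/cJ and 0 in C3H/HeJ and DBA/2J, and at an unadjusted exact permutation p under 0.05 there were 1 in A/J (Mpo), 1 in BALB/cJ (Ltf) and 0 in C3H/HeJ and DBA/2J.

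S100a8 averaged 4.0 ± 0.43 in A/J (SD, n = 3), 3.14 ± 0.69 in BALB/cJ (n = 4), 3.55 ± 0.58 in C3H/HeJ (n = 8), 3.34 ± 0.74 in DBA/2J (n = 5) and 3.73 ± 1.19 in C57BL/6J (n = 6). The wide spread of C57BL/6J came from replicate 1, at 5.88, beside 3.24, 3.19, 4.31, 2.67 and 3.06. The same mouse had the highest Ngp of all 366 arrays, 4.17. All groups overlapped for every member. Elane was 0.23 ± 0.10 lower in A/J than in C57BL/6J (log2 difference ± SE), with an exact permutation p of 0.12 and a limma adjusted p of 0.19. Mpo had values of 2.55, 2.48 and 2.68 in A/J, against 2.95, 2.73, 2.74, 2.90, 2.64 and 2.80 in C57BL/6J, and the groups overlapped (exact permutation p = 0.036, 0.75 after adjustment over the 32 tests of 8 members in 4 strains). Ltf in BALB/cJ read 3.02, 2.93, 5.26 and 2.82, against 2.61 to 2.98 in C57BL/6J. Marker genes of other cells did move in these comparisons: 7 of 8 smooth muscle genes were called higher in BALB/cJ and in C3H/HeJ, with median log2 differences of 1.82 and 1.62 where the median of all probe sets was -0.02 in each, and 7 of 14 macrophage genes were called lower in A/J. Their part in the members' values was not tested.

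The third comparison asked which members moved together. Over the 95 strain means, 1 of the 28 pairs of members passed after adjustment of the permutation p over the 28 pairs, and it was S100a8 with S100a9. Their biweight midcorrelation was 0.78 (adjusted p = 0.00028, permutation of strains), Spearman's rho 0.79 and Pearson's r 0.75, both at a permutation p of 1e-05, the smallest that 100000 resamples can give. Without the 2 strains farthest from the median of S100a8 the r was 0.73. The next pairs by the biweight midcorrelation were Ngp with Ltf, at 0.27 (permutation p = 0.0079, adjusted 0.11), and Ngp with Lcn2 and with Mpo, both at 0.23 (adjusted p = 0.18, permutation).

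Within strains, where the strain mean was subtracted so that only differences between mice of the same genotype remained, 11 of 28 pairs passed, all positive. The share of all gene pairs that would pass was not computed, so this count has no background beside it. Over all 17089 other genes, the median within-strain midcorrelation was 0.02 with S100a8 and S100a9, 0.01 with Ngp and 0 with Camp. S100a8 with S100a9 was again the strongest at 0.78 (adjusted permutation p = 7e-05; r = 0.74 and rho = 0.78, each with p = 1e-05). S100a9 with Camp followed at 0.39 (r = 0.53, rho = 0.40) and S100a8 with Ngp at 0.30 (r = 0.39, rho = 0.29), with an adjusted permutation p of 7e-05 for both midcorrelations. S100a8 with Camp (0.27), S100a8 with Lcn2 (0.24), S100a9 with Ngp (0.24), Ngp with Camp (0.22) and S100a9 with Lcn2 (0.19) passed too, and these 8 pairs also passed with Pearson's and Spearman's coefficients. The 3 other pairs, S100a9 with Ltf (0.15), Ngp with Ltf (0.16) and Ltf with Elane (0.16), passed with Spearman's but not with Pearson's coefficient. Mpo was in no pair that passed, and Mpo with Elane, the pair of primary granule genes, had 0.10 (permutation p = 0.1, adjusted 0.18). Camp, Ngp and the S100 pair thus moved together between mice of a strain, at strengths well below that of the S100 pair itself. Whether the pairs differed in strength between strain means and single mice was not tested.

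**Figure D2:**
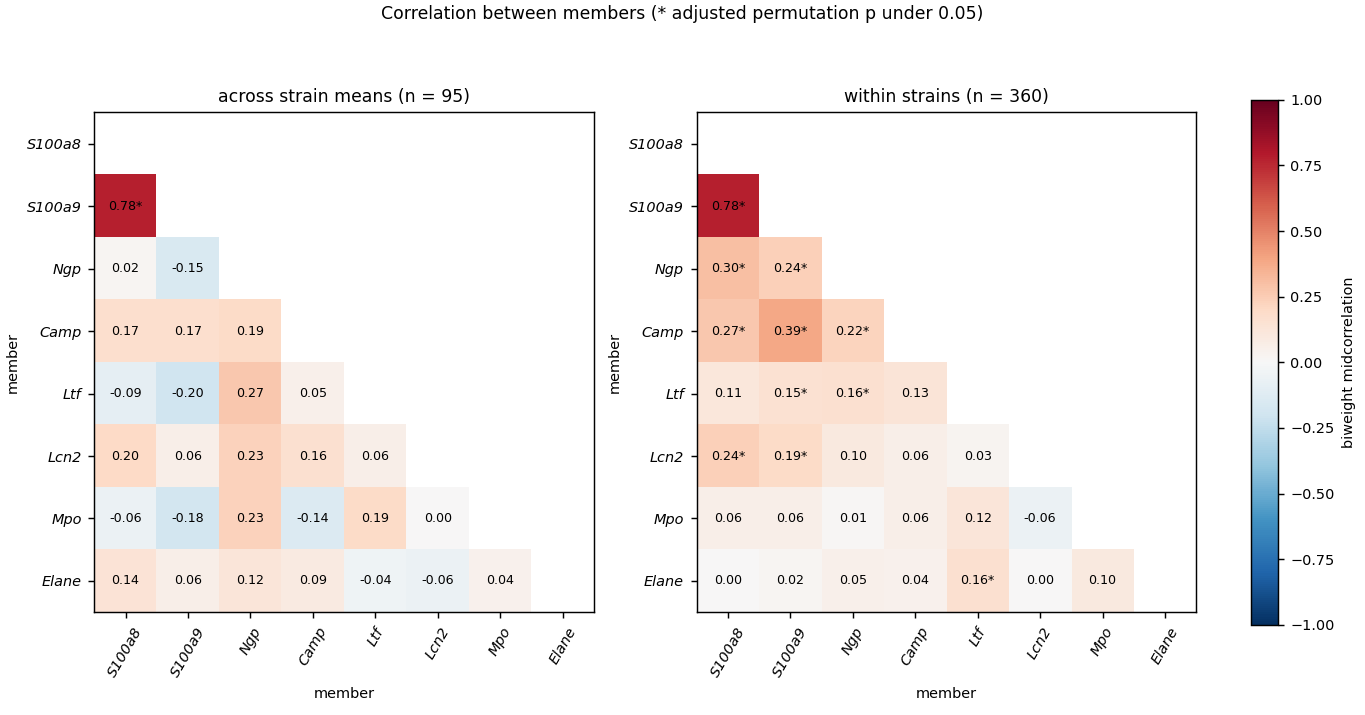
Biweight midcorrelation of the 28 pairs of measured members across 95 strain means (left) and over 360 arrays after the strain mean was removed (right), with the value in each cell and an asterisk where the adjusted permutation p was under 0.05. One pair is marked on the left (S100a8 with S100a9, 0.78) and 11 on the right.

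S100a8 and S100a9 are direct neighbours on chromosome 3, with 0 protein-coding genes between them in the RefSeq annotation of GRCm38.p6. Camp, Ngp and Ltf share chromosome 9, with 8 protein-coding genes between Camp and Ngp and 20 between Ngp and Ltf. The upstream sequences of the S100 pair are shown because these 2 genes moved together. They are the 250 bases before each start site, 5′ to 3′ on the strand of the gene, from RefSeq (GRCm38.p6), at chr3:90668821-90669070 on the plus strand and chr3:90695722-90695971 on the minus strand. Capitals mark matches on either strand to TTGCNNAA, half-sites of the C/EBP factors of granulocytes, and GAGGAA, a core of sites of the myeloid factor PU.1.
S100a8: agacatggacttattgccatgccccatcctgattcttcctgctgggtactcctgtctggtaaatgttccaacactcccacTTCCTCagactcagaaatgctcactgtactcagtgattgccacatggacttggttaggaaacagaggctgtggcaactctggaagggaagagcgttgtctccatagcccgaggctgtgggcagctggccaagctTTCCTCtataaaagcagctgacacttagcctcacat
S100a9: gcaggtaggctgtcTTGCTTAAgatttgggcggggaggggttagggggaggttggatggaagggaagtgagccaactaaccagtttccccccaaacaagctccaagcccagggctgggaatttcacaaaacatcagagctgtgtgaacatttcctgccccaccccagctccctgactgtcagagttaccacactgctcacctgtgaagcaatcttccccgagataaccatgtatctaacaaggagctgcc
The S100a8 window held 2 matches to GAGGAA and the S100a9 window 1 match to TTGCNNAA, so the pair shared neither set of letters in these windows. Of all 32851 promoters of the same length, 23.3% held GAGGAA and 9.56% held TTGCNNAA. Over the 9 members, 5 windows held GAGGAA (S100a8, Ltf, Lcn2, Mpo, Elane) and 5 held TTGCNNAA (S100a9, Ngp, Ltf, Lcn2, Retnlg). A match is a description of the letters only.

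**Figure D3:**
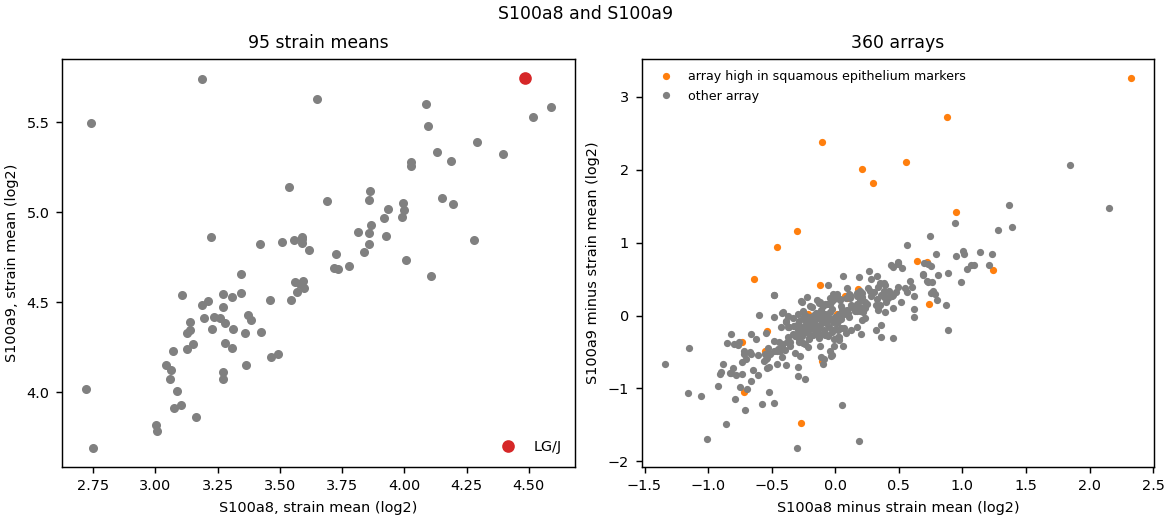
Left, S100a9 against S100a8 as strain means (log2) for 95 strains, with LG/J in red. Right, both genes as deviations from the strain mean (log2) over 360 arrays, with arrays high in squamous epithelium markers in orange. The orange arrays with the largest deviations lie above the diagonal band of the other arrays, with S100a9 raised more than S100a8.

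Levels of the members were then set beside marker lists of other cell types, 8 members with 20 lists at each level, 160 relations adjusted together. The lists were fixed with earlier results of these data known, and the tests were chosen after values were seen. Their p-values, here and in the paragraphs below, are therefore descriptive. Within strains 20 relations passed by the biweight midcorrelation, and 8 of those belonged to S100a8. The share of other genes that would pass with these lists was not computed. The counts of relations, here and across strain means, therefore have no background beside them. S100a8 went with the neutrophil surface receptors at 0.35, r = 0.41 and rho = 0.37, and with the platelet and megakaryocyte list at 0.35, r = 0.45 and rho = 0.37 (permutation p = 1e-05 for each coefficient, adjusted p = 0.00032 for 0.35). Without the 2 arrays farthest from the median the r values were 0.37 and 0.40. Among all arrays, S100a8 and the platelet list had r = 0.28 in the 17 arrays high in that list (permutation p = 0.28) and r = 0.22 in the 349 others (permutation p = 2e-05, adjusted 4e-05). Strain means were not removed in this split, and arrays were permuted without regard to strain. Differences among strains therefore enter these values, and mice of a strain were counted as independent. The gene of the neutrophil lists nearest to S100a8 was Chil3, a chitinase-like protein of myeloid cells, at 0.34, and that of the platelet list was Clec1b, the podoplanin receptor, at 0.31, where the median over all 17089 genes was 0.02. Of the 4 arrays that exceeded the S100a8 median by more than 3 scaled median absolute deviations, 3 were among the 17 arrays high in the platelet list (75% of the arrays high in S100a8 and 17.6% of the platelet-high ones): C57BL/6J replicate 1 (5.88, list mean 5.33), AXB12/PgnJ replicate 1 (5.84, list mean 5.03) and BXD69/RwwJ replicate 1 (5.77, list mean 5.67). Others with high S100a8 were not, such as AXB15/PgnJ replicate 1 (5.4, list mean 3.83) and LG/J replicate 3 (5.26, list mean 3.86). The same number of the S100a8-high arrays, 3 of 4, were high in airway markers (6.82% of the airway-high ones). C57BL/6J replicate 1 was also high in airway, erythroid and macrophage markers. AXB12/PgnJ replicate 1 was also high in airway, squamous, T cell and foam cell markers. Both were high in the neutrophil receptor, maturation and attractant lists. Ppbp, a platelet chemokine, stands in both the platelet and the attractant list. The part of platelets in the S100a8 values was not tested.

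Across strain means, 10 of the 160 relations passed. S100a9 went with the neutrophil maturation list at 0.45 (adjusted permutation p = 0.0016; r = 0.45 with p = 2e-05, rho = 0.44 with p = 2e-05, r = 0.45 without the 2 farthest strains). S100a8 and S100a9 went with the neutrophil growth factors and attractants at 0.34 and 0.31 (adjusted permutation p = 0.023 and 0.033) and against the brown adipocyte list at -0.32 and -0.38 (adjusted permutation p = 0.033 and 0.0096), where S100a8 did not pass with Pearson's r (-0.27, adjusted permutation p = 0.055). With the neutrophil surface receptors S100a8 had 0.31 and S100a9 0.34 (adjusted permutation p = 0.034 and 0.023). There S100a8 did not pass with Spearman's rho (0.30, adjusted permutation p = 0.059). Elane went against smooth muscle genes at -0.45 (adjusted permutation p = 0.0016; r = -0.47 and rho = -0.45, p = 1e-05 each, r = -0.48 without the 2 farthest strains). Elane also passed with the squamous list at 0.32 (adjusted permutation p = 0.033), but r was -0.13 there (adjusted permutation p = 0.49). S100a9 and Ltf passed with the squamous list by Pearson's r alone (0.45, adjusted permutation p = 0.0008, and 0.54, adjusted permutation p = 0.0029). Their midcorrelations with it were 0.05 and -0.11. For the receptors and partners of the secreted proteins, Lcn2 passed within strains at 0.27 (adjusted permutation p = 0.0004), a list that holds Serpina3n.

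**Figure D4:**
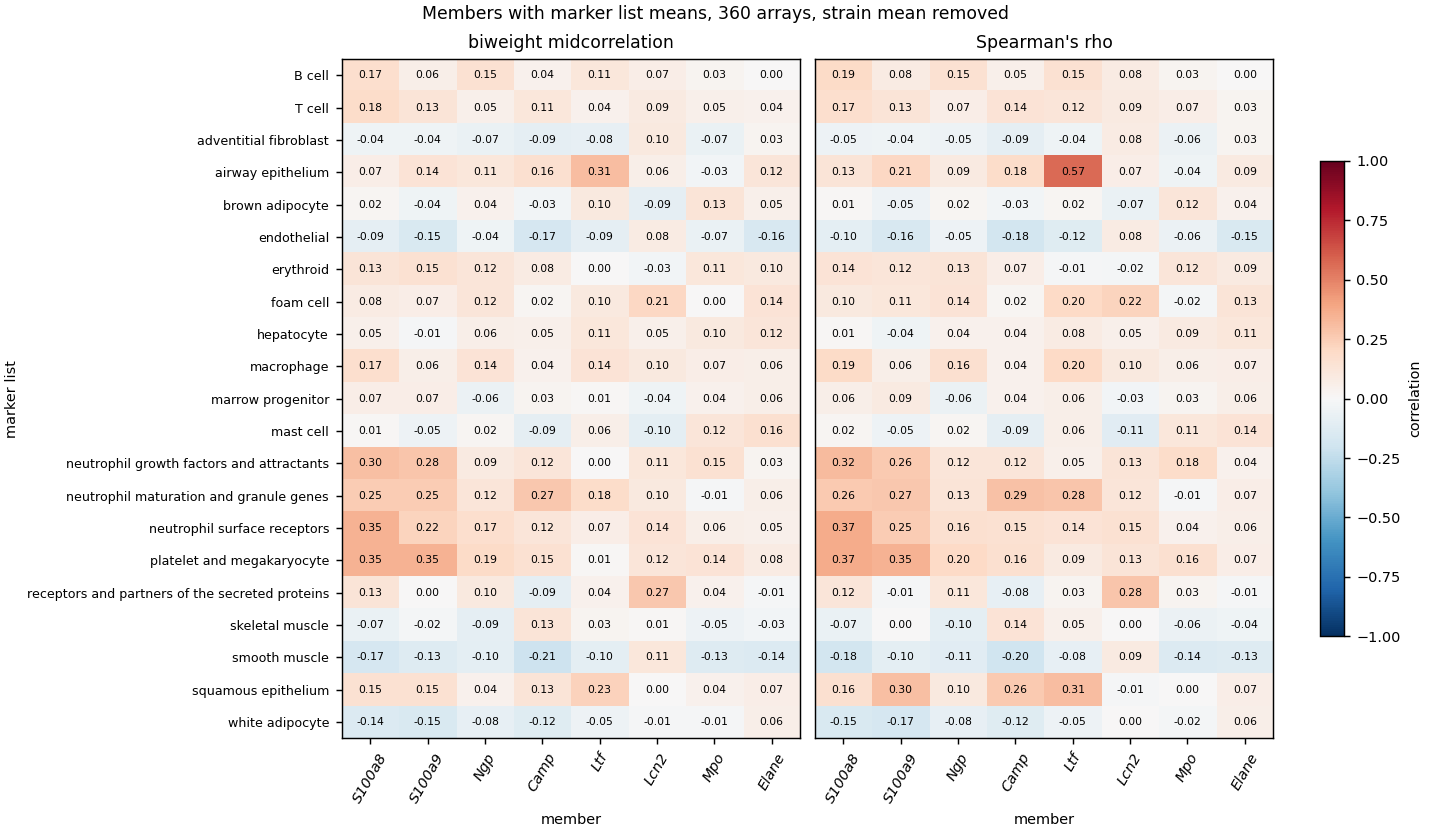
Correlation of each measured member with the mean of each marker list over 360 arrays after the strain mean was removed, as biweight midcorrelation (left) and Spearman's rho (right), with the value in each cell. S100a8 and S100a9 are warm in the neutrophil and platelet rows (0.22 to 0.37), and Ltf in the airway epithelium row (0.31 and 0.57).

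Ltf, the lactoferrin gene, was high in single mice. It exceeded its own median by more than 3 scaled median absolute deviations in 20 arrays of 19 strains. In NOD/ShiLtJ it read 2.50 and 9.46, in I/LnJ 2.77, 2.82, 2.86 and 9.28, and in BUB/BnJ 2.97, 9.10, 2.69 and 2.95. In each of these strains 1 mouse was far above the rest, and the strain means (up to 5.98) were set by that mouse. The 3 highest arrays had means of the airway epithelium markers of 8.01, 7.84 and 8.35, where the median array had 2.85. Of the 20 arrays high in Ltf, 19 were also high in airway markers, which is 95% of the arrays high in Ltf and 43.2% of the 44 airway-high arrays.

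Within the 44 airway-high arrays, whose list means ran from 3.25 to 8.59, Ltf ranged from 2.65 to 9.46 and went with the list mean at r = 0.93 and rho = 0.83 (0.94 without the 2 farthest arrays). In the other 322 arrays Ltf stayed between 2.38 and 3.35, and r was 0.19 and rho 0.16. The airway list was drawn up after Ltf had been seen to move with such genes, so these are descriptions and carry no test. The genes nearest to Ltf within strains by the biweight midcorrelation were Scgb3a2 (0.33), Scgb1a1 (0.32) and Mybl2 (0.30), and Scgb3a2 and Scgb1a1, secreted proteins of airway epithelium, were the only 2 of 17089 genes above 0.3. That coefficient weights distant arrays down, and the arrays high in Ltf are such arrays. By Pearson's r within strains 158 genes exceeded 0.3, among them all 11 measured airway genes, from 0.47 (Foxj1) to 0.94 (Scgb3a1). Scgb1a1, the club cell secretory protein, ranged from 1.99 through a median of 2.51 to 12.91. Without the airway-high arrays, Ltf had 9.58% of its variance among strains and passed the limma F test with an adjusted p of 0.049. Within strains Ltf also went with the neutrophil maturation and granule list (midcorrelation 0.18, adjusted permutation p = 0.018; rho = 0.28, adjusted p = 0.00018) and the squamous list (0.23, adjusted permutation p = 0.0004; rho = 0.31, adjusted p = 0.00018). With the neutrophil surface receptors it had 0.07 (adjusted permutation p = 0.38), and this relation passed with Pearson's r alone (0.23, adjusted permutation p = 0.015). The origin of Ltf in these arrays was not tested.

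The arrays highest in S100a9 were mostly high in squamous epithelium markers, and those highest in Camp mostly were not. The 6 arrays with the highest S100a9 were BUB/BnJ replicate 4 (8.32), AXB12/PgnJ replicate 1 (8.10), C58/J replicate 3 (8.01), AXB5/PgnJ replicate 1 (7.74), NOD/ShiLtJ replicate 2 (7.32) and SJL/J replicate 1 (7.25). They were also the 6 arrays with the highest mean of the squamous markers, between 7.92 and 8.76, where the median array had 3.19. The seventh, BXD69/RwwJ replicate 1 (6.93), had a squamous mean of 3.18 and was one of the highest arrays for S100a8. Of the 8 arrays high in S100a9, 7 were squamous-high, and of the 11 arrays high in Camp, 3 were (27.3%). Airway-high were 7 of the same 8 (87.5%) and 5 of the same 11 (45.5%). Over the 360 arrays with strain means removed, neither S100a9 (midcorrelation 0.15, adjusted permutation p = 0.057) nor Camp (0.13, adjusted permutation p = 0.072) passed with the squamous list, while both passed by Spearman's rho (0.30, adjusted permutation p = 0.00027, and 0.26, adjusted permutation p = 0.00018). Within the 29 squamous-high arrays S100a9 went with the list mean at r = 0.89 (permutation p = 1e-05, adjusted 3e-05) and rho = 0.65 (p = 0.00038, adjusted 0.00076), and Camp at r = 0.74 (p = 1e-05, adjusted 3e-05) and rho = 0.63 (p = 0.00032, adjusted 0.00076). In the 337 other arrays r was 0.11 for S100a9 (permutation p = 0.041, adjusted 0.049) and 0.14 for Camp (p = 0.0087, adjusted 0.013), in a family of 6 such tests. As in the platelet split, strain means were not removed and mice of a strain were counted as independent. Of the squamous genes, the defining keratins Krt5 and Krt14 had medians of 3.16 and 2.81 and reached 9.59 and 8.65.

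With the squamous-high arrays left out, S100a9 had a larger share of variance among strains, 26.3% (limma adjusted p = 6.5e-07), than the 14.4% of all arrays. The share was similar without the airway-high arrays, 27.7% (limma adjusted p = 4.5e-07), and on ranks of all arrays, 23.6%. Without the squamous-high arrays, the midcorrelation of S100a8 with S100a9 was 0.92 across strain means and 0.83 within strains. S100a8 changed little, at 16.6%. In that set of arrays the midcorrelation of S100a9 with Camp within strains was 0.33.

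The genes nearest to the other members by the biweight midcorrelation were weakly alike, and no test was made of them. Across strain means S100a9 had the inflammasome adaptor Pycard at 0.54 and S100a8 the bacterial lipoprotein receptor Tlr2 at 0.40, after Mettl14 and Zfp273, both at 0.41. Elane had Cenpv and Chchd6 at 0.55, Ngp had the platelet glycoprotein Gp5 at 0.48, Mpo had 1700023A20Rik at 0.49, Camp had Ccnf at 0.37 and Ltf had Erf at 0.48. Within strains the nearest were Plek, a protein of platelets and leukocytes, for S100a8 (0.35), Nhp2 and Chil3 for S100a9 (0.39 and 0.35), Det1 for Ngp (0.33), Paqr5 and Atp13a4 for Camp (both 0.40), Ube2l3 for Mpo (0.26) and Fam184a for Elane (0.30). Pearson's r within strains was higher for S100a9, with Tmem40 and Ly6g6e at 0.68 and 685 genes above 0.3. Those included 17 of the 20 squamous genes (median 0.57). For Camp 457 genes exceeded 0.3, with 16 of the 20 squamous genes.

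**Figure D5:**
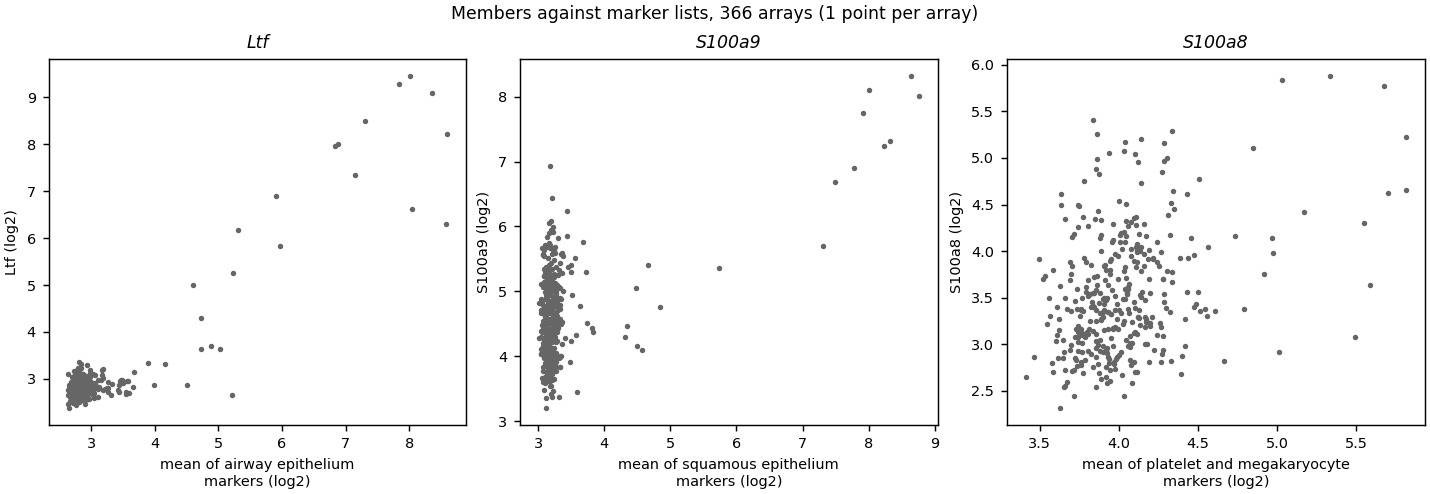
Ltf against the mean of the airway epithelium markers, S100a9 against the mean of the squamous epithelium markers and S100a8 against the mean of the platelet and megakaryocyte markers (all log2), 1 point for each of 366 arrays. Ltf and S100a9 are raised in the arrays far to the right, up to 9.46 and 8.32, while S100a9 also spreads from 3.20 to 6.93 at the base level of the squamous list.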

How the data were processed

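Expression in the aortas of 366 females was read on Affymetrix arrays, 1 per mouse, which the labels name HT_MG-430A and the methods HT-MG_430 PM. The authors deposited 1 table of log2 values for 45141 probe sets, made per the labels with GCOS and RMA; their versions and the genome build are not given in the sources used here. No column was left out. Groups were the F1 strains of the labels, and replicate numbers follow accession order. The number of arrays per strain (median 4, highest 8) limits the precision.

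A single gene symbol was given for 28898 probe sets, several for 551 and none for 15692; 99.8% of the 17097 genes were found in RefSeq (GRCm38.p6). Genes were read from their highest-mean probe set. Members and lists were chosen with earlier results of these data known. Strains were compared with limma 3.58.1 in R 4.3.3 (F test, contrasts in 1 fit of all arrays, Benjamini-Hochberg over all probe sets, threshold 0.05), and the share among strains is the intraclass correlation. Biweight midcorrelations (constant 9) were tested with 100000 permutations, within strains for deviations from the strain mean, in numpy 2.4.6. The splits by marker-high arrays used levels without removal of the strain mean, permuted over all arrays of the split. The tests were checked on simulated data. Named were all members, genes from the 3 nearest of each, up to 3 genes of each neutrophil list with the smallest p, and the first markers of the other lists; Pearson neighbours, LG/J, the airway markers and the tests of members against lists were chosen after values were seen. Alternatives were quantile normalization, a trended robust fit, a filter on low probe sets, ranks, strain families, other coefficients, and removal of marker-high arrays, replicates or strains. Alternatives of the correlations used 10000 permutations. A second probe set per member was planned, but each measured member had 1. Without Retnlg, 28 pairs of members remained.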

Additional observations from a re-analysis of the deposited data

Results flagged for a closer look

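Dixon's gap ratio was applied to each of 75 strains with 4 or more arrays, where chance gives about 1 in 20 groups. It was passed in 14 strains for Ltf, always by a high array, in 9 each for S100a8 and Ngp, and in 4 to 7 for the other members. The values below are those in strains listed as highest, lowest or progenitor for the member, or holding 1 of its 10 highest arrays. For Ltf they were 9.28 (I/LnJ replicate 4), 9.10 (BUB/BnJ replicate 2), 8.22 (BXD75/RwwJ replicate 3), 8.00 (MA/MyJ replicate 2), 7.97 (AXB5/PgnJ replicate 4), 6.63 (BXD40/TyJ replicate 2) and 5.26 (BALB/cJ replicate 3). AXB12/PgnJ replicate 1 stood apart in S100a8 (5.84), S100a9 (8.10) and Camp (3.61). S100a8 was 5.77 in BXD69/RwwJ replicate 1, and S100a9 was low at 3.36 in BXD87/RwwJ replicate 3. Ngp was 3.44 in AKR/J replicate 1, 3.38 in BXH8/TyJ replicate 4 and 3.31 in C3H/HeJ replicate 4. Camp was 3.41 in BXA2/PgnJ replicate 2 and low at 2.31 in BXD44/RwwJ replicate 4. Lcn2 was 6.94 in BXA7/PgnJ replicate 3 and 5.35 in AXB13/PgnJ replicate 2. Mpo was 3.27 in BXD64/RwwJ replicate 2 and 3.03 in SM/J replicate 2, and Elane was 3.19 in MA/MyJ replicate 3.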

How the results depend on the processing

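No member was called against C57BL/6J under any of the 17 to 22 alternatives run for each progenitor. The count of members that differed among strains, 5, became 3 with probe sets above the median mean, where only 3 members were left, 3 in BXD strains alone, 0 in AXB/BXA strains alone and 2 in classical inbred strains alone, each with fewer arrays. Leaving out 1 replicate number from every strain gave 1 to 4 members, with 1 (Lcn2) without replicate 2; the cause was not tested. Mpo and Elane each lost the call under 8 of 16 alternatives. Pairs that passed across strain means, 1 in the report, were 2 without arrays high in erythroid markers, 2 without arrays high in airway markers, 3 with Pearson's r and 1 to 2 on leaving out each strain, where the second pair was Ngp with Ltf without DBA/2J or without FVB/NJ. Within strains 8 to 14 pairs passed. Ngp with Ltf within strains turned to -0.01 with Pearson's r. S100a8 with S100a9 kept its call in every alternative, at 0.75 to 0.92 across strain means and 0.74 to 0.84 within strains. No paired analysis was possible because replicate numbers follow accession order and pair no mice. A second probe set was not run because each member had 1. Removing airway-high arrays and removing LG/J were added after seeing the data. Low signals without detection calls limit Ngp, Camp, Mpo and Elane most.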
